A study of Arabidopsis thaliana with 4 samples.

Results

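The B-type cyclins of Arabidopsis thaliana were followed in shoot apices of the mutant ron3 and of its control Ler. The 10 loci were chosen by family, namely CYCB1;1 to CYCB1;5, CYCB2;1 to CYCB2;4 and CYCB3;1, and every gene probe of the arrays whose locus identifier was one of these was taken. They are AT4G37490, AT5G06150, AT3G11520, AT2G26760 and AT1G34460 for the CYCB1 branch, AT2G17620, AT4G35620, AT1G20610 and AT1G76310 for the CYCB2 branch, each in numerical order, and AT1G16330 for CYCB3;1. Each locus had 1 probe, and all 10 were among the 19269 genes tested. Each of the 10 probes was well above background in both genotypes on all 4 arrays, so the filter on dim probes removed 0 of them.

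Plants of both genotypes were grown in vitro under the condition labelled LD to growth stage 1.02, and RNA of their shoot apices was compared directly on 4 two-colour Agilent arrays. The groups were the ron3 mutant and the Ler control. No treatment is labelled, and the labels give neither the ron3 allele nor the number of plants behind a sample. Ler, the accession Landsberg erecta, carries a mutation in the receptor kinase gene ERECTA, and ron3 was isolated in that accession according to general knowledge of the mutant. The mutant RNA carried Cy5 on arrays a and c and Cy3 on the other two, b and d. The design text speaks of dye swaps with biological replicates without saying which arrays share an RNA extract, so the p-values measure the spread between these 4 arrays, which may be partly technical. Values are log2 ratios of ron3 over Ler after background correction and loess normalization, and tests are from a linear model with a dye effect (limma), two-sided and adjusted over all genes tested by the Benjamini-Hochberg method, with a threshold of 0.05.

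B-type cyclins are the regulatory subunits of the cyclin-dependent kinases (CDKs) that take a plant cell from G2 into mitosis. Their transcripts accumulate late in the cell cycle under MYB3R transcription factors, and the proteins are destroyed in anaphase through the anaphase-promoting complex (APC/C). In a shoot apex they mark the dividing cells of the meristem and of young leaf primordia, and CYCB1;1 is the base of the most used reporter of such cells. Because an apex is a mixture of cells, fewer dividing cells and less cyclin RNA per cell cannot be told apart in these data.

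Of the 10 B-type cyclins 9 fell in ron3 and 0 rose (limma, adjusted p from 0.000443 to 0.0043). In the same fit 32.7% of all genes tested were called lower and 36.9% higher, 69.7% in either direction, so that a call by itself was common. The members' median log2 ratio was −0.56, while that of all genes tested was 0.02 and their 10th percentile was −0.56. The falls were moderate, from 1.21-fold for CYCB3;1 to 1.87-fold for CYCB1;3. The 1 member that did not pass was CYCB1;5, at −0.16 (adjusted p = 0.0512).

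**Figure D1:**
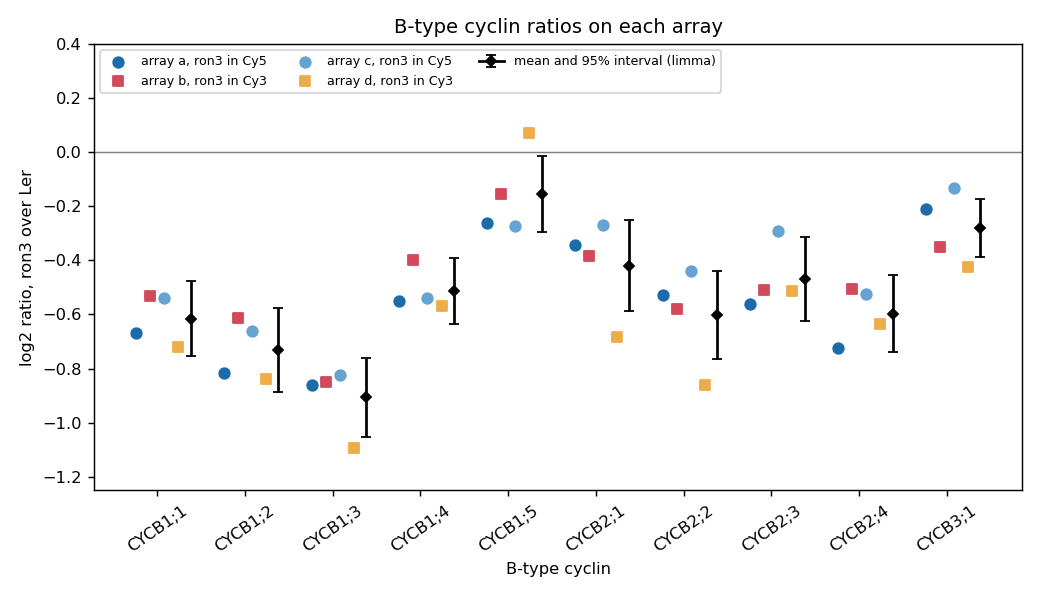
Log2 ratio of ron3 over Ler (vertical axis) for each of the 10 B-type cyclins on arrays a to d, with circles where ron3 was in Cy5 and squares where it was in Cy3. Diamonds with bars are the fitted mean and its 95% interval (limma). All points lie below 0 but 1, that of CYCB1;5 on array d at 0.07.

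CYCB1;3 fell most, with log2 ratios of −0.86, −0.85, −0.82 and −1.09, given here and throughout in the order of arrays a to d. Its mean was −0.91 ± 0.13 (SD, n = 4), a 1.87-fold fall with a 95% interval of 1.69 to 2.07 (limma, adjusted p = 0.000443). On the scale of log2 normalised intensity its probe stood between 9.50 and 9.83 in ron3 and between 10.59 and 10.68 in Ler. The ron3 levels of all 4 arrays thus lay below every Ler level. Array d stood lower than the other three in ron3, while its Ler level lay among the others.

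CYCB1;2, listed in the reference as CYC1BAT, had log2 ratios of −0.82, −0.61, −0.66 and −0.84. The mean of −0.73 ± 0.11 (SD, n = 4) is a 1.66-fold fall with an interval of 1.49 to 1.85 (limma, adjusted p = 0.00076). Together with its closest relatives this cyclin is known to organise mitotic microtubule arrays. The probe stood between 10.56 and 11.02 on the log2 scale in ron3 and between 11.40 and 11.64 in Ler, and the groups did not overlap.

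CYCB1;1, whose transcript is also known to be induced by DNA damage, had log2 ratios of −0.67, −0.53, −0.54 and −0.72. Its mean was −0.62 ± 0.09 (SD, n = 4), or 1.53-fold lower with an interval of 1.39 to 1.69 (limma, adjusted p = 0.000887). As for the gene before it, arrays a and d gave the larger falls, and these arrays differ in dye orientation. The levels lay between 9.15 and 9.36 in ron3 and between 9.82 and 9.97 in Ler.

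CYCB1;4, a further activating subunit of the same branch, had log2 ratios of −0.55, −0.40, −0.54 and −0.57, and a mean of −0.51 ± 0.08 (SD, n = 4). That is a 1.43-fold fall with an interval of 1.31 to 1.56 (limma, adjusted p = 0.000995). Array b stood apart with the smallest fall, and even there the ron3 level of 10.74 lay below the Ler level of 11.14.

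For CYCB1;5 the 4 log2 ratios of −0.26, −0.16, −0.27 and 0.07 did not share a sign. Its mean of −0.16 ± 0.16 (SD, n = 4) had an interval of −0.29 to −0.02 and missed the threshold (limma, adjusted p = 0.0512). The raw median spot intensities on arrays a to d were 171, 132, 198 and 108.5 in ron3 and 142, 199, 182 and 132 in Ler, over local backgrounds of 45 to 86.5. The ron3 and Ler levels overlapped, and array d, with the lowest raw intensity in both genotypes, was the array on which the sign turned. After normalization its ron3 level, 6.92, was above that of array a, 6.89. Without array d the log2 ratio was −0.21 (limma, adjusted p = 0.0161). With the log ratio that Feature Extraction, the scanner's image software, computed, it was −0.47 (limma, adjusted p = 0.0034). That software's log2 ratio on array d itself was −0.27.

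All 4 CYCB2 genes fell, a pair of them by nearly the same amount. The log2 ratios of CYCB2;2 were −0.53, −0.58, −0.44 and −0.86, and it had a mean of −0.60 ± 0.18 (SD, n = 4) and an adjusted p of 0.00136 (limma). Those of CYCB2;4 were −0.72, −0.51, −0.53 and −0.63, with a mean of −0.60 ± 0.10 and an adjusted p of 0.00098 (limma). The folds were 1.52 (interval 1.36 to 1.70) and 1.51 (1.37 to 1.67), and the order of these genes changed between arrays. In both genes every ron3 level lay below every Ler level.

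CYCB2;3 had log2 ratios of −0.56, −0.51, −0.29 and −0.51, with a mean of −0.47 ± 0.12 (SD, n = 4), or 1.38-fold lower (interval 1.24 to 1.54, limma, adjusted p = 0.00243). Its smallest fall was on array c. CYCB2;1 had −0.34, −0.38, −0.27 and −0.68, with a mean of −0.42 ± 0.18, or 1.34-fold lower (interval 1.19 to 1.50, limma, adjusted p = 0.0043). Within each array the gene was lower in ron3, but its levels shifted between arrays by more than its smallest fall. The highest ron3 level, 8.29 on array b, met the lowest Ler level, 8.29 on array a. The Feature Extraction log ratio gave this gene a larger fall of −0.74 (limma, adjusted p = 0.00571).

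CYCB3;1, known in Arabidopsis for a part in male meiosis, fell least among the called members. Its log2 ratios were −0.21, −0.35, −0.13 and −0.43, and the mean was −0.28 ± 0.13 (SD, n = 4), or 1.21-fold lower (interval 1.13 to 1.31, limma, adjusted p = 0.00375). Both arrays with ron3 in Cy3 gave larger falls than both with ron3 in Cy5, and the unadjusted p of its dye effect was 0.0489 (adjusted p = 0.437, limma). The Feature Extraction log ratio gave −0.48 (adjusted p = 0.00316).

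**Figure D2:**
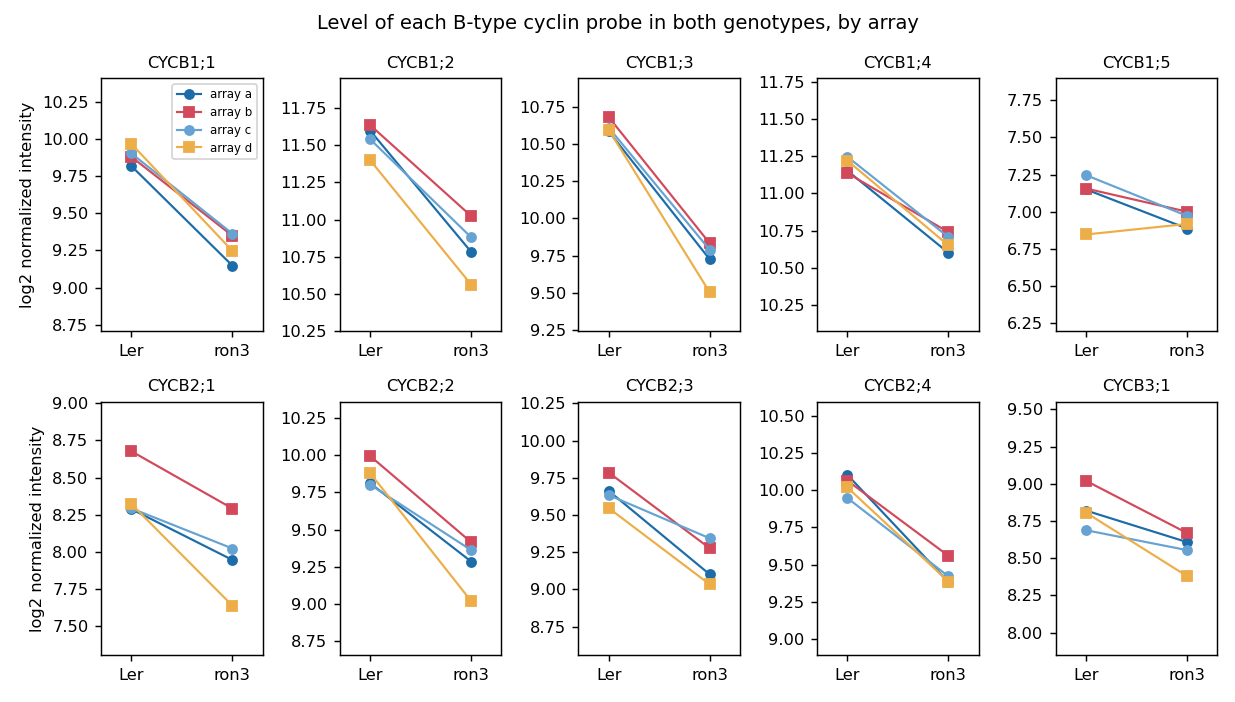
Log2 normalised intensity (vertical axis, separate for each probe, all spanning the same range) of each B-type cyclin in Ler and in ron3, with 1 line per array and squares where ron3 was in Cy3. The lines slope down in all panels, except that of array d for CYCB1;5, which runs from 6.85 in Ler to 6.92 in ron3.

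In 8 of the 10 members the ron3 levels of all 4 arrays lay below the Ler levels of all 4 arrays, as they did in 26.1% of all genes tested. In 9 members the ratio was below 0 on all 4 arrays, against 35.3% of all genes tested.

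The members were ordered by their mean over the same 4 arrays, so the steps between neighbours are a description, with no test. CYCB1;3 stood below CYCB1;2, the next in the order, by 0.18 ± 0.10 (SD, n = 4), and CYCB1;2 below CYCB1;1 by 0.12 ± 0.03. CYCB2;1 stood below CYCB3;1 by 0.14 ± 0.09. The remaining neighbours, from the third to the eighth place and at the last step, changed order on at least 1 array. The order also depended on the processing. With the Feature Extraction log ratio CYCB1;3, CYCB1;2 and CYCB1;1 stayed lowest in that order. CYCB2;1, at −0.737, then lay below CYCB1;4 at −0.617 and CYCB2;3 at −0.625, the reverse of the main fit. In the main fit the CYCB1 branch averaged −0.58 over its 5 genes and the CYCB2 branch −0.52 over its 4. The difference of −0.06 ± 0.10 (SD, n = 4 arrays) had the same sign on 3 of 4 arrays (exact two-sided sign-flip test, p = 0.375). As 4 arrays allow no p below 0.125, that test could not have passed the threshold, and nothing is concluded from it. The CYCB1 means without CYCB1;5, the uncalled member, were −0.724, −0.597, −0.641 and −0.805 on arrays a to d. Those of CYCB2 were −0.538, −0.495, −0.382 and −0.672, higher on each array. Leaving out CYCB1;5 was chosen after seeing the data, and this difference was not tested.

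The arrays gave similar pictures of the family. The members' mean log2 ratio was −0.55, −0.49, −0.45 and −0.63 on arrays a to d, while the median of all genes tested lay between 0.01 and 0.04. The ratio was lowest on array d for 7 members, on array a for 2 and on array c for 1. The dye effect passed the threshold for 0 of the 10 members and 0 of all genes tested (limma), with 1 member and 2202 genes at an unadjusted p under 0.05.

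Array d also differed in other respects. It was the dimmest, with a median Cy5 intensity of 148 against 194.5 to 222 on the others, and a median Cy3 intensity of 129.5 against 135 to 164. Yet its share of probes well above background was the highest, at 59.5% in ron3 and 57% in Ler. On the other arrays the share was 55.5% to 56.4% in ron3 and 54.2% to 55.1% in Ler. The mean ratio of the 10 measured of 14 root markers was −0.035 on array d and 0.57 to 0.67 on the others. Of these 10, RHD6, EXPA7 and EXPA18, which mark root hairs, were well above background on 0 Ler arrays and passed the filter through ron3 alone, so their calls are not read. Of the other 7, 4 were called higher, among them IRT1, an iron transporter, at 1.43 ± 0.51 (SD, n = 4) and at 2.66 with the Feature Extraction log ratio centred on each array's median, and 0 lower. PLT1, PLT2, CASP4 and CASP5 did not pass the filter. Over all genes tested 36.9% were called higher and 32.7% lower in the main fit. All 8 photosynthetic leaf markers were called lower, with a mean of −0.78 on array d and −0.43 to −0.33 on the others. Not all fell on every array. LHCB1.1 stood at 0.19 and 0.20 on arrays a and c, with ron3 in Cy5, and at −0.44 and −0.66 on b and d. LHCA1 also fell more on b and d than on a and c, while LHCB2.2 stood at 0.01 on array b. These counts varied. Counts over all 10 root markers, and their array means and median, include RHD6, EXPA7 and EXPA18 and are not read as a result. With these genes included, 7 were called higher and 0 lower. The counts were 3 and 0 without array a, 4 and 0 without c, and 7 and 2 without b. They were 7 and 1 with median centring, and 5 and 1 with the Feature Extraction log ratio, where the median went from 0.41 to 1.28. Under the stricter filter 3 root markers were left, with 1 higher and 1 lower. Of the leaf markers 4 were called lower without array a and 5 without c, without d or with the Feature Extraction log ratio. Without a dye effect in the model 6 were called lower. The part of these tissues in the cyclin ratios was not tested. Without array d all 10 members passed the threshold as lower, as did 31.0% of all genes tested, and the members' median was −0.50.

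As a check of the labels, RON3 itself (AT4G24500, listed in the reference as SIC) was 4.92-fold lower in ron3 (log2 ratio −2.30 ± 0.08, SD, n = 4, limma, adjusted p = 0.000152). The shoot apex genes STM, KNAT1, CLV1, ANT and AS1 were well above background in both genotypes on 4 of 4 arrays, while CLV3 and WUS did not pass the filter. STM, the homeobox gene that keeps meristem cells undifferentiated, rose by 0.40 ± 0.12 and KNAT1, of the same family, by 0.33 ± 0.10 (limma, adjusted p = 0.0033 and 0.00385). ANT, a promoter of primordium growth, fell by 0.83 ± 0.12 and CLV1, a receptor kinase of the meristem, by 0.15 ± 0.05 (limma, adjusted p = 0.000412 and 0.0269), though the call of CLV1 ended with median centring (adjusted p = 0.231), with arrays a and d and arrays b and c averaged as dye swaps (0.0671), and without array a, c or d (0.073 to 0.164). The median of these 5 measured genes was −0.04, which is the ratio of AS1, and the genes moved both ways. As the list mixes genes of the meristem and of primordia, its median does not speak for the meristem alone.

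The kinases that B-type cyclins activate were also lower, with 1 exception. CDKA;1, the CDK shared by all cycling phases, rose by 0.28 ± 0.18 (SD, n = 4, limma, adjusted p = 0.00261). Its log2 ratios were 0.12, 0.43, 0.12 and 0.45, higher on both arrays with ron3 in Cy3. The plant-specific mitotic kinases all fell: CDKB2;1 had a mean of −0.51 ± 0.11, CDKB1;1 of −0.38 ± 0.08, CDKB1;2 of −0.26 ± 0.20 and CDKB2;2 of −0.19 ± 0.09 (limma, adjusted p from 0.002 to 0.0291). The docking subunits CKS1 and CKS2 had means of −0.25 ± 0.15 and −0.26 ± 0.12 (limma, adjusted p = 0.0114 and 0.0181). Each of the 6 falling genes was below 0 on all 4 arrays. CDKB1;2 was well above background in ron3 on 2 of 4 arrays. Leaving out array a ended the calls of 4 of the 6, all but those of CDKB1;1 and CDKB2;1 (limma, adjusted p from 0.0729 to 0.111). Leaving out c ended those of CDKB2;2 and both docking subunits (0.0545 to 0.0925), and leaving out d that of CDKB1;2 (0.077). The call of CDKB1;2 also ended with arrays a and d and arrays b and c averaged as dye swaps (0.0503). With the Feature Extraction log ratio CDKB1;2 stood at −1.01 and CDKB2;2 at −0.37.

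A-type cyclins, which act in S phase and G2, were lower in 5 of 9 measured genes, and 0 rose (median −0.27). In the main fit 32.7% of all genes tested were called lower and 36.9% higher. CYCA1;1, a cyclin of the G2 to mitosis step, had log2 ratios of −0.62, −0.66, −0.64 and −0.93, with a mean of −0.71 ± 0.15 (SD, n = 4, limma, adjusted p = 0.000798). CYCA3;2, of the S phase branch, had a mean of −0.70 ± 0.29, with −0.57 and −0.36 on arrays a and c and −0.91 and −0.96 on b and d (limma, adjusted p = 0.000628). CYCA3;1 and CYCA2;3 had means of −0.39 ± 0.10 and −0.38 ± 0.08 (limma, adjusted p = 0.00117 and 0.0027). The Feature Extraction log ratio called 8 of the 9 lower, with 38.4% of all genes tested called lower, and put CYCA3;1 at −0.79.

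Of the MYB3R factors that control B-type cyclin transcription, MYB3R4 fell and MYB3R5 rose. MYB3R4, an activator of mitotic genes, had log2 ratios of −0.36, −0.25, −0.36 and −0.48 and a mean of −0.36 ± 0.09 (SD, n = 4, limma, adjusted p = 0.00404). MYB3R1, known to act both as an activator and as a repressor, stood at −0.10 ± 0.05 and the repressor MYB3R3 at −0.04 ± 0.09, neither past the threshold (limma, adjusted p = 0.0818 and 0.463). Both passed as lower with the Feature Extraction log ratio, at −0.29 and −0.34 (adjusted p = 0.005 and 0.016). The repressor MYB3R5 rose by 0.21 ± 0.12 (limma, adjusted p = 0.0234), a call that ended with the Feature Extraction log ratio (0.10, adjusted p = 0.141) and without array a, c or d (adjusted p from 0.0547 to 0.127). MYB3R2 was well above background on 2 ron3 arrays and 0 Ler arrays. It passed the filter on dim probes through ron3 alone, so its measured mean log2 levels of 6.72 in ron3 and 6.15 in Ler are given with no fold and no test.

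Genes that destroy B-type cyclins were mostly lower as well. Of 18 measured genes of the APC/C, its activators, inhibitors and ubiquitin-conjugating enzymes 13 fell and 2 rose (median −0.38). Over all genes tested 32.7% were called lower and 36.9% higher. The genes that fell include the inhibitors UVI4, at −0.26, and OSD1, at −0.50. CDC20.1 and CDC20.2, which activate the complex in mitosis, had means of −0.93 ± 0.10 and −0.68 ± 0.12 (SD, n = 4, limma, adjusted p = 0.000401 and 0.000726). CCS52B, an activator expressed in mitosis, had a mean of −0.80 ± 0.16 and the core subunit APC10 −0.52 ± 0.04 (limma, adjusted p = 0.000608 and 0.000673). The genes that rose were CCS52A2, an activator linked to the exit from division and to endoreduplication, at 0.36 ± 0.11 (limma, adjusted p = 0.00405), and the subunit APC11 at 0.17 ± 0.12 (limma, adjusted p = 0.0315), both singled out once their values were known. The call of APC11 ended under 8 of the 17 alternatives, among them the Feature Extraction log ratio (0.08, adjusted p = 0.214).

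Inhibitors of the CDKs, with the inhibitory kinase WEE1, moved both ways. Of 9 measured genes 4 rose and 2 fell, and the median was 0.06. Over all genes tested 36.9% were called higher and 32.7% lower, so these counts are not read as a result. With the Feature Extraction log ratio 3 rose and 4 fell, and the median was −0.03. KRP6, an inhibitor known from the germ line, rose by 1.01 ± 0.28 (SD, n = 4), with log2 ratios of 1.32, 0.72, 0.83 and 1.15 (limma, adjusted p = 0.00195). SMR1, also called LGO, which promotes endoreduplication in sepals and leaves, rose by 0.59 ± 0.08, and KRP5 by 0.56 ± 0.04 (limma, adjusted p = 0.000476 and 0.00055). KRP7 fell by 0.63 ± 0.06 (limma, adjusted p = 0.00047), and stood at −0.95 with the Feature Extraction log ratio.

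Genes that carry out mitosis and cytokinesis, many of which share MYB3R control with the B-type cyclins, fell in all 8 measured members (median −0.65). In the same fit 32.7% of all genes tested were called lower. HIK, a kinesin of the phragmoplast, had a mean of −0.85 ± 0.11 (SD, n = 4), TPX2, a spindle assembly factor, −0.83 ± 0.11, KNOLLE, the syntaxin of the cell plate, −0.77 ± 0.14, and PLE, a microtubule-bundling protein of the phragmoplast, −0.66 ± 0.07 (limma, adjusted p from 0.000557 to 0.000931). S phase genes fell in 10 of 11 measured members (median −0.43). CDC6, of replication licensing, had a mean of −0.70 ± 0.06, PCNA1, the replication clamp, −0.59 ± 0.19, MCM2, of the replicative helicase, −0.46 ± 0.13, and PCNA2 −0.46 ± 0.10 (limma, adjusted p from 0.000356 to 0.00106). The B-type cyclin median of −0.56 lay between those of the S phase and the mitosis lists, and a difference between the lists was not tested.

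**Figure D3:**
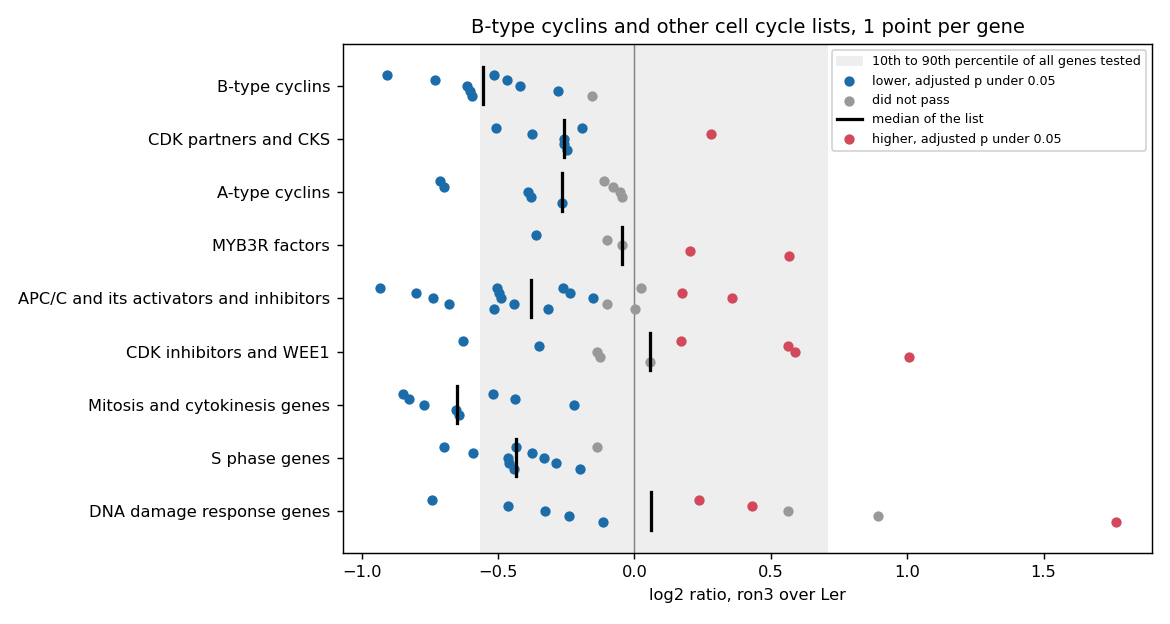
Log2 ratio of ron3 over Ler (horizontal axis) of the measured genes of each cell cycle list, 1 point per gene, with the list's median as a black bar and the 10th to 90th percentile of all genes tested as the grey band. The B-type cyclins lie from −0.91 to −0.16, and the mitosis and S phase lists lie below 0 as well, while the MYB3R, CDK inhibitor and DNA damage lists lie on both sides of 0.

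Since the first gene of the family responds to DNA damage, a list of damage response genes was set beside it. Of 10 measured genes 5 fell and 3 rose (median 0.06), where 32.7% of all genes tested were called lower and 36.9% higher. That median includes NAC085, which was well above background on 2 ron3 and 0 Ler arrays and passed the filter through ron3 alone. It also includes NAC044, well above background on 3 ron3 arrays and 1 Ler array. Among the 8 genes well above background in both genotypes on all 4 arrays, 5 fell and 3 rose, and the median was −0.18. BRCA1, of recombination repair, had a mean of −0.74 ± 0.07 (SD, n = 4), and COM1, which resects DNA ends and is listed as GR1 in the reference, −0.33 ± 0.12 (limma, adjusted p = 0.000402 and 0.00351). With the Feature Extraction log ratio COM1 stood at −0.61 and the median of the list was −0.07. XRI1, known to be induced by X-rays, rose by 0.43 ± 0.12 (limma, adjusted p = 0.00348). SMR5, a CDK inhibitor induced by damage and oxidative stress and singled out once its values were known, rose by 1.76 ± 0.65 (limma, adjusted p = 0.0041). Its log2 ratios were 2.12, 0.89, 1.69 and 2.36. Without array c 3 of the list fell and 2 rose, and with median centring 4 fell and 5 rose. A relation between the damage list and the ratio of CYCB1;1 was not tested.

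The genes most like the B-type cyclins were sought over the 8 channel levels of the 4 arrays, by Pearson's correlation with the members' mean standardised level. The members themselves correlated with that mean at r = 0.675 to 0.995, with the mean including each of them. The 6 closest other genes were AGD2 (AT1G60860), described in the reference as an ARF-GAP domain protein, PLE, AT1G23790, RBL10, a rhomboid-like protein, AT1G75210 and AT2G03280, with r from 0.995 to 0.998. Their log2 ratios lay between −0.66 for PLE and −0.44 for AT2G03280. As 2828 of 19245 genes had r above 0.9 and the 8 levels share arrays and the genotype difference, these values describe the levels and no more.

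All 10 members kept a mean below 0 under every alternative tried, while the size of the falls varied. The mean could differ only where background correction, normalization within arrays, the source of the ratio or the arrays included changed. Aquantile scaling, the pairings and the changes of filter, model and probe choice left it as it was for every member. The authors' values are the processed signals of Feature Extraction and gave the same means. With the log ratio of Feature Extraction all 10 members were called lower, as were 38.4% of all genes tested. The members' median was −0.74, where the median of all genes was −0.04. With median centring in place of loess 9 members and 26.5% of all genes tested were called lower, and the members' median was −0.49.

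**Figure D4:**
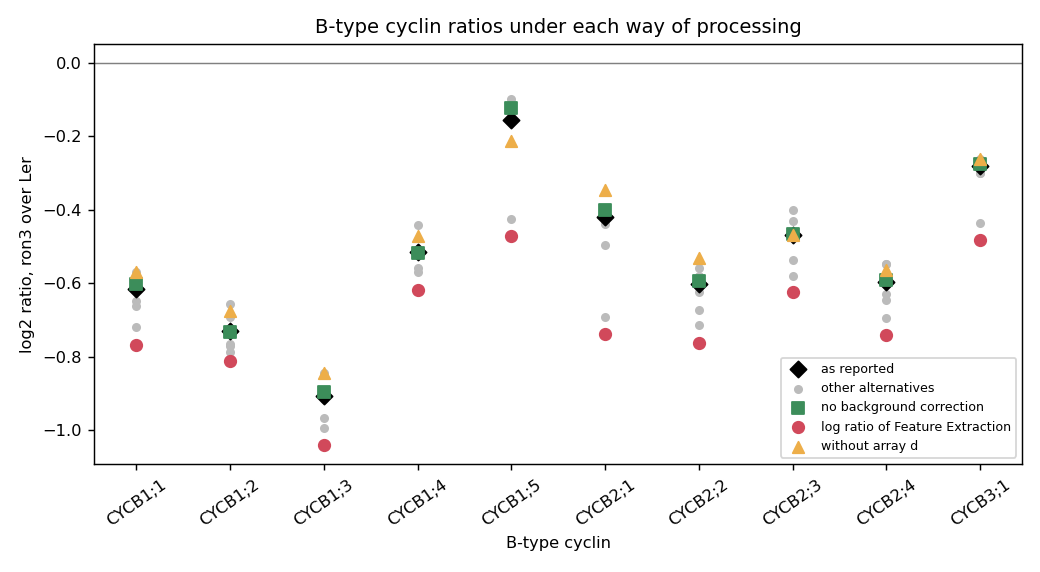
Log2 ratio of ron3 over Ler (vertical axis) of each B-type cyclin as reported and under the 17 alternatives tried. Every value is below 0, and those from the Feature Extraction log ratio are the lowest of the named settings, down to −1.04 for CYCB1;3.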

How the data were processed

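Agilent Feature Extraction 10.1.1.1 read the scans, per the submitters' processing notes. Of the deposited columns, those used were the median pixel intensities of spot and local background, per the file headers, with the software's flags. Also deposited is a log10 ratio, red channel over green, of its processed signals. The authors' value table was deposited as log2 ratios, ron3 over Ler and not centred, which equalled the processed signals to within 5e-06.

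Signals were corrected by normexp (offset 50) and loess within arrays with limma 3.58.1 in R 4.3.3. Spots with outlier flags were left out, repeated spots averaged, and a probe was kept if 1 genotype or both exceeded background clearly on 2 or more arrays and 3 or more arrays measured it. The brightest probe stood for a locus. A model with a dye effect was fitted to 19269 genes (2 residual and 2.44 prior degrees of freedom) and checked on simulated data. Levels per genotype came from loess with Aquantile scaling. The alternatives changed background correction, normalization, filter, model, probe choice, pairing of arrays and arrays included. The number of arrays limits the precision.

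The members and lists were chosen with earlier results of these data known. Genes named were all members, RON3, all measured CDK, CKS and MYB3R genes, up to 4 called genes with the smallest p of each other list, and the 6 most alike. One gene that this rule names is not reported here. Names came from the TAIR10.1 reference table, where 19158 of the 19269 genes were found. KRP4, whose name was not found at its locus, was left out. Probe and gene sequences were not used here, so binding of one cyclin's transcript to the probe of another was not tested.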

Additional observations from a re-analysis of the deposited data

Results flagged for a closer look

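For 5 of the 76 named genes and lists examined, 1 array lay far from the other three by Dixon's criterion, which chance alone meets for about 1 group in 20. CYCB1;3 stood at −1.09 on array d against −0.86 to −0.82 on the others. CYCB1;4 stood at −0.40 on array b against −0.57 to −0.54. The A-type cyclin CYCA1;1 stood at −0.93 on array d against −0.66 to −0.62. IRT1 stood at 0.67 on array d against 1.61 to 1.73, and the mean of the root markers at −0.035 against 0.57 to 0.67. That mean includes RHD6, EXPA7 and EXPA18, which passed the filter through ron3 alone. In 4 of these 5 cases array d was the one apart. These cases are not independent, as IRT1 is part of the root marker mean, and nothing is concluded from their number.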

How the results depend on the processing

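The count of B-type cyclins called lower was 9 under 11 of the 17 alternatives and 10 under the other 6, and 0 members were called higher under any of the 17. The member that separated these counts was CYCB1;5. It passed with no background correction (−0.12, adjusted p = 0.0417), with the Feature Extraction log ratio (−0.47, adjusted p = 0.0034), with the authors' values (−0.47, adjusted p = 0.00341), with the stricter filter (−0.16, adjusted p = 0.0433), without array d (−0.21, adjusted p = 0.0161) and with the Feature Extraction log ratio centred on each array's median (−0.42, adjusted p = 0.00472), the last chosen after seeing the data. Its adjusted p over the 17 alternatives ran from 0.0034 to 0.183. The other 9 members kept their direction and their call under all 17, with adjusted p up to 0.0365. In the alternatives that left the mean ratios as they were, at most the p could move. The authors' values repeat those of Feature Extraction. Over all genes tested 13424 were called, between 9985 and 13253 when 1 array was left out, with 9 or 10 members called lower in each case. The share of all genes tested that was called lower was 32.7% in the main fit. It ran from 24.2% to 38.4% over the 17 alternatives. Leaving out 1 array moved CYCB1;5 between −0.21 and −0.10 and CYCB1;3 between −0.97 and −0.84. Each array sets ron3 against Ler, so every ratio is already a comparison within an array. The main fit used no further pairing, because the replicate letters mark arrays, not pairs of samples. Averaging arrays a with b and c with d, or a with d and b with c, as if they were dye swaps of the same RNA, left 9 members called. The spot of CYCB1;5 was dim, and the part of this in its ratios was not tested.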
